A study of Rattus norvegicus with 18 samples.

Results

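Tagln, Nexn, Ccn1, Ccn2, Myl9, Tpm1, Cnn2, Ankrd1, Amotl2 and Yap1 are a set of rat genes that bind or regulate actin filaments, or that belong to the YAP pathway and its usual readouts. They are 10 of the 18923 genes in the deposited gene table of an ageing study of the nucleus pulposus, the hydrated centre of the disc between vertebrae. The set was chosen by gene name, and the names were chosen from their gene-level abundance at the ages compared here, so those levels are given as a description, with no test. Of the 10 genes, 9 passed the filter on low values used for the fit across all genes, and Ankrd1 did not.

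The groups were nucleus pulposus tissue of rats aged 2, 10 and 20 months, with 3 input libraries at each age, which are poly(A) RNA libraries made without antibody. The labels name no treatment, strain, sex or disc level, and do not say whether animals were pooled or whether the 3 libraries of an age came from separate animals. The p-values therefore reflect variation among libraries of an age, and that variation may be technical. The 9 antibody-enriched libraries of the same samples are not analysed here.

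YAP is a transcriptional co-activator that is held out of the nucleus when LATS, the Hippo kinase downstream of MST, phosphorylates it. It enters the nucleus when cells spread, stretch or build actin stress fibres. There it binds TEAD proteins, which recognise the letters CATTCC, and raises genes such as Ccn1, Ccn2, Ankrd1 and Amotl2. A parallel route runs through serum response factor (SRF) and its co-activator MRTF, which is released when free actin is used up and which drives genes of the contractile apparatus such as Tagln, Myl9, Tpm1, Cnn2 and Nexn through a motif called the CArG box. Nucleus pulposus cells derive from the notochord and sit in a tissue under constant load and osmotic stress.

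Promoter windows from RefSeq (build GRCr8, 250 bases before and 50 after the start, on the gene's strand) were held for 7 of the 10 genes. Of these, 4 are shown with motif letters in capitals: those of Ccn2 and Ccn1, which are common YAP readouts, of Nexn, which had the largest ratio between ages, and of Cnn2, the 1 window with a CArG box. Both strands were searched for CATTCC, which reads GGAATG on the other strand, and for the CArG box.
Ccn2, chr1:22624565-22624864, minus strand: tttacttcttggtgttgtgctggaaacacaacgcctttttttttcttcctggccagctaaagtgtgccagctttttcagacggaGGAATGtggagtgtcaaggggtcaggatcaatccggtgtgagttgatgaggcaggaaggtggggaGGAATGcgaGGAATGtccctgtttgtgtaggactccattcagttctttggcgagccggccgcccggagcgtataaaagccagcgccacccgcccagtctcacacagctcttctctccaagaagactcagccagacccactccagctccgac
Ccn1, chr2:237225640-237225939, minus strand: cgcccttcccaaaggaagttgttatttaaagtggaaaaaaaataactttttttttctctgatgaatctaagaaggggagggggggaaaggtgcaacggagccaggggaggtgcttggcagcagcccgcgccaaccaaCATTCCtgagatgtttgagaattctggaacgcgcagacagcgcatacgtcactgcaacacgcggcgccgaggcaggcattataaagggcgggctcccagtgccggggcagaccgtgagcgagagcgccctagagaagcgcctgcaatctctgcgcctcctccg
Nexn, chr2:243878103-243878402, minus strand: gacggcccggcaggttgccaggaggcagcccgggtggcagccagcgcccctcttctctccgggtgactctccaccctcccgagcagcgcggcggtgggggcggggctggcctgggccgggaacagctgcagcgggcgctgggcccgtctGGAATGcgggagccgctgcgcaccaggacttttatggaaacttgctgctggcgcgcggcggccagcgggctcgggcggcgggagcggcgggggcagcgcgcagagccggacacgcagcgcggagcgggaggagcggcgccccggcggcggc
Cnn2, chr7:10370263-10370562, minus strand: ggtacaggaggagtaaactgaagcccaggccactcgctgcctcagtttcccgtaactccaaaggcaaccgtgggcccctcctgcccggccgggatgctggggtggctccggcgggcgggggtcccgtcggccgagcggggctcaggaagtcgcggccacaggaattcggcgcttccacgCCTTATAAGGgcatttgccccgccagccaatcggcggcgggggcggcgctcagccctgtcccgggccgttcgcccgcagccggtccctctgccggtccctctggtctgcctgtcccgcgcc
The capitals mark GGAATG in Ccn2 and Nexn, CATTCC in Ccn1 and the CArG box CCTTATAAGG in Cnn2. The deposited gene table, on a build of its own, lists Cnn2 on the plus strand, so the start that this window refers to may not be the one counted there.

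The Ccn2 window held the TEAD letters at 3 places, beginning 166, 101 and 92 bases before the start, and the matches did not overlap. In the Ccn1 window the letters began 113 bases before the start, and in the Nexn window 101 bases before it. Tpm1, Amotl2 and Yap1 held them once each, beginning 31, 76 and 116 bases before the start. In all, 6 of the 7 windows held the TEAD letters, against 14.2% of the 33469 rat windows of the same length. Cnn2 was the 1 window without them, and the 1 window with a CArG box, which 1.64% of all windows hold. The set was chosen in part for known YAP targets, and a match describes letters and shows no binding. Tagln, Myl9 and Ankrd1 are named only.

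The 20-month libraries stood apart in ways that cannot be told apart from age. Their commonest read length, as estimated from coverage and transcript length, was 141 bases, against 132 bases at both younger ages. Of their bases, 80.1 to 80.9% lay on listed transcripts, against 85.6 to 86.1%. Ribosomal protein genes took 12.8 to 13.1% of the summed FPKM in 2-month libraries, 15.2 to 15.4% in 10-month and 19.2 to 19.8% in 20-month ones. Genes of the mitochondrial genome took 0.430 to 0.532% of that sum in the 2-month libraries, 0.551 to 0.650% in 10-month and 0.0846 to 0.1004% in 20-month ones. Depth was 4.77 to 5.04 gigabases for the youngest libraries, 4.35 to 4.74 for the middle and 3.53 to 4.90 for the oldest. Replicate 3 at 20 months also stood apart from the other libraries of its age in muscle and fibroblast markers, and the differences of the 9 genes in the fit are given with and without it.

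The levels are FPKM, fragments divided by transcript length and library size, a per-length unit that lets genes be compared. Averaged over the 9 libraries, Tagln ranked 91st among all listed genes and Tpm1 ranked 223rd. Ccn2 and Ccn1 ranked 451st and 638th. Cnn2, Yap1 and Amotl2 followed at ranks 1268, 2042 and 2442, Nexn at 3494 and Myl9 at 7400. Ankrd1 ranked 12620th and stayed under 1 FPKM in every library. Of the 10 genes, 4 lie on chromosome 8 (Tagln, Tpm1, Amotl2 and Yap1), which holds 5.501% of all listed genes. The annotation columns of the gene table put Tagln, Nexn, Tpm1 and Cnn2 under actin binding, and Ccn2 and Yap1 under the Hippo signalling pathway. Coordinates below are those of the table, whose genome build the sources used here do not give.

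**Figure D1:**
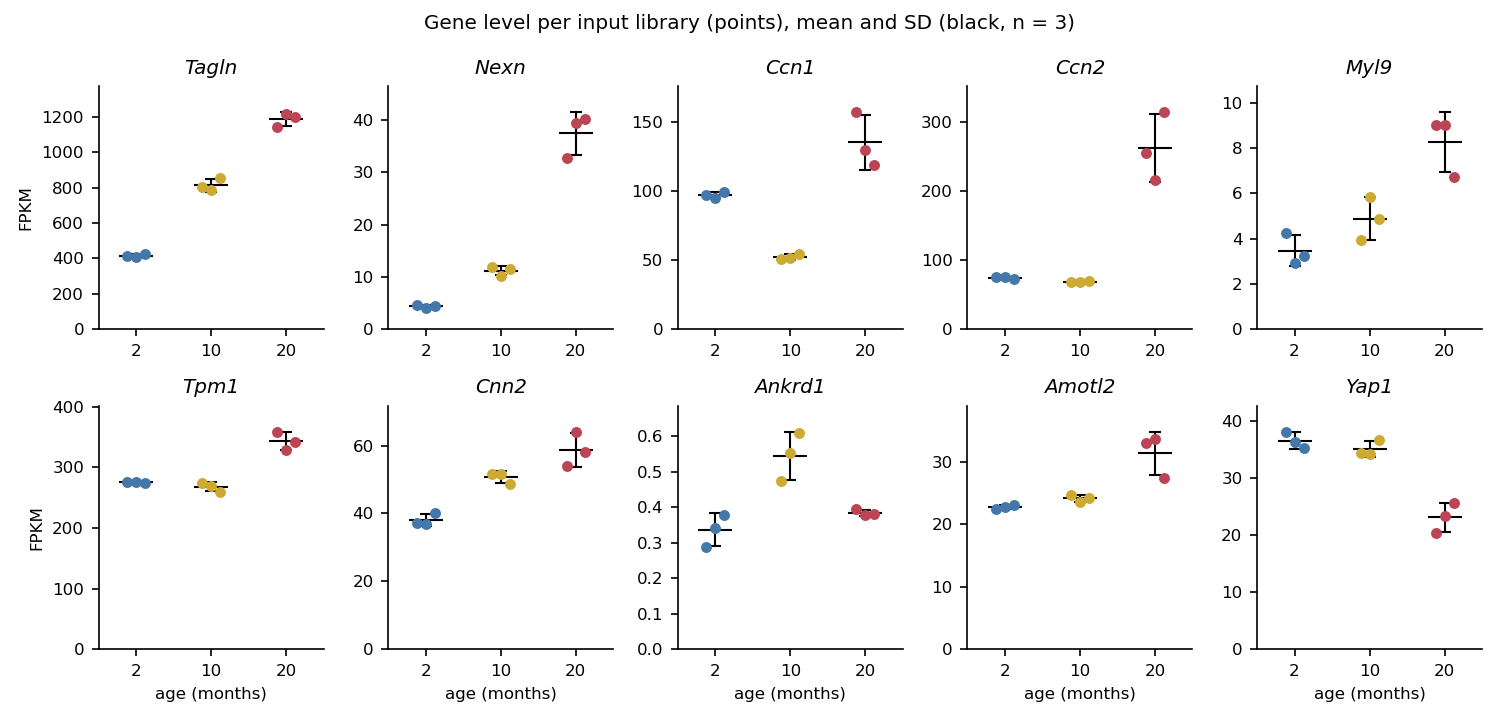
Level of each of the 10 genes in FPKM (vertical axis, from 0, its own scale per gene) at 2, 10 and 20 months (horizontal axis), with 1 point per input library and the mean and SD of 3 libraries in black. Tagln and Nexn step up at each age, Ccn1 dips at 10 months, Ccn2 stands apart at 20 months, Yap1 is lowest at 20 months and Ankrd1 stays below 1 FPKM throughout.

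The genes whose products bind actin filaments or form part of myosin are given first. Tagln (ENSRNOG00000017628, chr8:50222896-50231357) encodes transgelin, a small protein that cross-links actin and is best known from smooth muscle. Its libraries read 415, 406 and 425 FPKM at 2 months, 802, 784 and 854 FPKM at 10 months, and 1144, 1218 and 1200.4 FPKM at 20 months. The ages did not overlap at any step, and the means were 416 ± 9.49, 813 ± 36.4 and 1187 ± 38.7 FPKM (SD, n = 3 each). The 20-month mean was 2.86 times the 2-month mean, and the 10-month mean was 1.96 times it. On the log2(FPKM + 1) scale used for all differences here, which understates the change of low genes, Tagln was higher by 0.97 at 10 than at 2 months and by 1.51 at 20 than at 2 months (SE 0.04).

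Nexn (ENSRNOG00000012512, chr2:257453347-257484587) encodes nexilin, an actin-binding protein of the Z-disc in muscle and of cell-matrix adhesions elsewhere. It read 4.57, 4.12 and 4.43 FPKM at 2 months, 11.8, 10.2 and 11.5 FPKM at 10 months, and 32.7, 39.3 and 40.2 FPKM at 20 months. Of the 10 genes it had the largest ratio, with a 20-month mean 8.55 times the 2-month mean. No library of one age reached into another age, and each step was larger than the SDs of 0.229, 0.870 and 4.07 FPKM. The differences were 1.18 at 10 against 2 months, 2.83 at 20 against 2 months and 1.65 at 20 against 10 months (SE 0.08).

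Tpm1 (ENSRNOG00000018184, chr8:72814740-72842228) encodes tropomyosin 1, which winds along the filament and governs access of myosin. Its libraries were nearly level at 2 months, with 275.9, 276.0 and 275.0 FPKM. They read 274, 269 and 259.8 FPKM at 10 months, and 359, 329 and 343 FPKM at 20 months. The 10-month libraries lay just under the 2-month ones, by 0.04 on the log2 scale with an SE of 0.04. The 20-month libraries lay above both, with a difference of 0.31 against 2 months and 0.36 against 10 months.

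Cnn2 (ENSRNOG00000043044, chr7:12782491-12787750) encodes calponin 2, a calponin found outside smooth muscle that restrains actomyosin. It stood at 37.3, 36.9 and 40.2 FPKM at 2 months, 51.7, 51.6 and 48.7 FPKM at 10 months, and 53.9, 64.0 and 58.2 FPKM at 20 months. The larger step in its mean was at 10 months, where the difference against 2 months was 0.40 (SE 0.06). Between 20 and 10 months the difference was 0.20, and the lowest 20-month library, at 53.9 FPKM, lay just above the highest 10-month library, at 51.7 FPKM. Median-of-ratios scaling turned the order of the steps round, to 0.36 at 10 against 2 months and 0.46 at 20 against 10 months.

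Myl9 (ENSRNOG00000020246, chr3:152857592-152863960) encodes a regulatory light chain of smooth-muscle and non-muscle myosin. It read 4.24, 2.94 and 3.25 FPKM at 2 months, 3.93, 5.83 and 4.89 FPKM at 10 months, and 9.04, 9.01 and 6.72 FPKM at 20 months. The 10-month and 2-month libraries overlapped, and the 20-month libraries lay above all others. At an SE of 0.16 it was the least precise of the 9 genes, with a difference of 1.05 at 20 against 2 months. Myl9 is close in sequence to Myl12a, which lay between 396 and 488 FPKM in every library, so its level is uncertain if reads were divided between the copies.

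Among the YAP targets, Ccn2 (ENSRNOG00000015036, chr1:21851660-21854773) encodes connective tissue growth factor, a secreted matrix-associated protein that the rodent notochord and nucleus pulposus are known to make. It read 75.8, 75.0 and 73.3 FPKM at 2 months, 69.0, 68.3 and 69.2 FPKM at 10 months, and 255, 216 and 314 FPKM at 20 months. The 10-month libraries lay just under the 2-month ones without overlap, with a difference of -0.12 (SE 0.11, from the fit over all ages). The 20-month mean was 3.502 times the 2-month mean. The 20-month libraries also spread the most, the SDs being 1.28 FPKM at 2 months, 0.458 FPKM at 10 months and 49.2 FPKM at 20 months.

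Ccn1 (ENSRNOG00000014350, chr2:251529354-251532312) encodes CYR61, a secreted protein of the same family that binds integrins. Its libraries read 97.2, 94.8 and 99.2 FPKM at 2 months, 50.7, 51.8 and 54.4 FPKM at 10 months, and 157, 130.2 and 119 FPKM at 20 months. The order was thus 10, 2 and 20 months, with no overlap. It was lower by 0.88 on the log2 scale at 10 than at 2 months (SE 0.09) and higher by 0.47 at 20 than at 2 months. Ccn1 and Ccn2 therefore differed at 10 months, where Ccn1 had 0.539 times and Ccn2 0.921 times its own 2-month mean.

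Amotl2 (ENSRNOG00000008487, chr8:111209908-111226226) encodes an angiomotin-like scaffold that binds YAP at cell junctions and is itself a YAP target, so it is read as a feedback inhibitor. It stood at 22.5, 22.8 and 23.2 FPKM at 2 months, 24.8, 23.7 and 24.2 FPKM at 10 months, and 33.1, 33.7 and 27.4 FPKM at 20 months. The younger ages were 0.08 apart (SE 0.07). The third 20-month library was the lowest of its age and still above every younger library, and the difference at 20 against 2 months was 0.44.

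Ankrd1 (ENSRNOG00000018598, chr1:254726969-254735548) encodes a muscle ankyrin-repeat protein and is one of the most used YAP readouts in cultured cells. It was low here, with 0.287, 0.342 and 0.379 FPKM at 2 months, 0.474, 0.553 and 0.608 FPKM at 10 months, and 0.394, 0.378 and 0.380 FPKM at 20 months. The estimated reads behind these values were 17.5 to 36.7 per library. The 10-month libraries were the highest, and the 20-month and 2-month libraries overlapped. Its difference in an unfiltered fit was 0.05 at 20 against 2 months.

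Yap1 (ENSRNOG00000005933, chr8:6135493-6203579), the co-activator itself, was highest at the younger ages. It read 38.1, 36.3 and 35.2 FPKM at 2 months, 34.3, 34.1 and 36.6 FPKM at 10 months, and 20.4, 23.3 and 25.6 FPKM at 20 months. The 10-month and 2-month libraries overlapped, and the 20-month libraries lay below all others with a mean of 23.1 ± 2.60 FPKM, against 36.5 ± 1.44 FPKM at 2 months (SD, n = 3 each). The difference was -0.65 at 20 against 2 months and -0.59 at 20 against 10 months (SE 0.07). Yap1 was the 1 gene of the 9 that was lower at 20 than at 2 months.

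**Figure D2:**
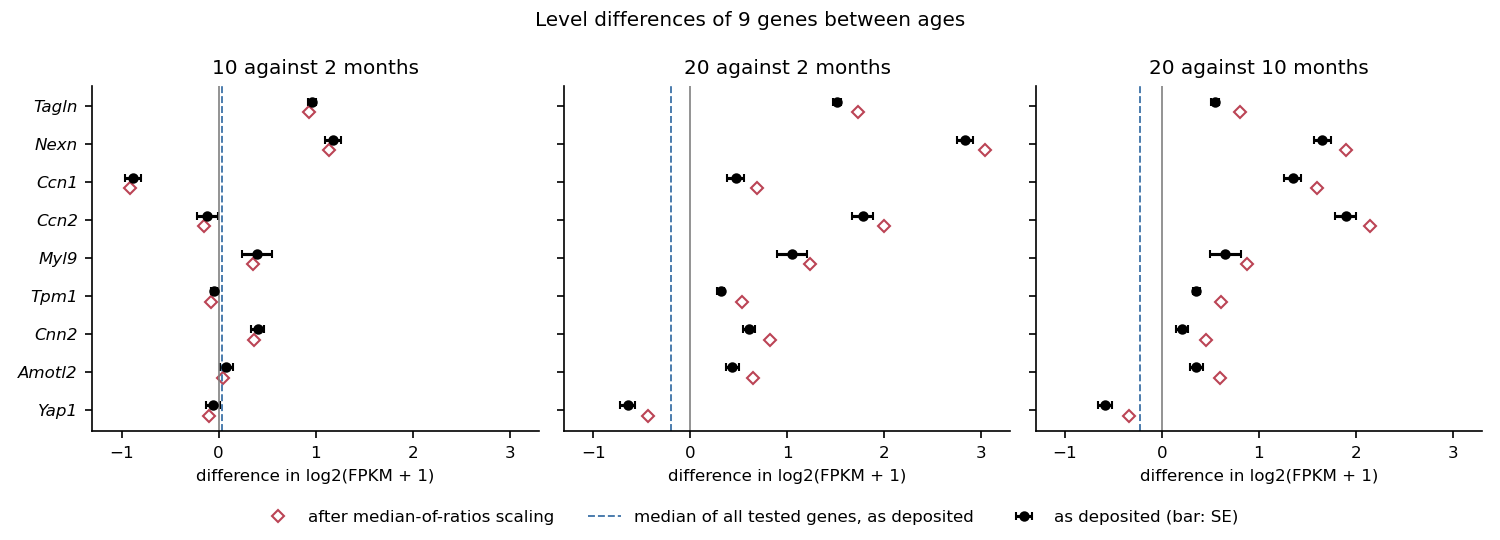
Difference in log2(FPKM + 1) between ages for the 9 genes that passed the filter (older minus younger), with 1 panel per pair of ages. Black points with SE bars show the deposited FPKM, open diamonds the same after median-of-ratios scaling, and the dashed line the median of all 11708 tested genes. At 20 against 2 months Nexn lies farthest right, at 2.83, and Yap1 is the gene left of 0, at -0.65.

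Over all 11708 tested genes, limma with Benjamini-Hochberg adjustment (adjusted p under 0.05) called 19% higher and 11.4% lower at 10 against 2 months, 18.6% higher and 49.6% lower at 20 against 2 months, and 11.4% higher and 53.3% lower at 20 against 10 months. The set was chosen on these contrasts, so no calls are given for its genes. The 2 comparisons with 2 months share the 2-month libraries, and both comparisons with 20 months share the 20-month libraries. Over all tested genes the median difference was 0.04, -0.20 and -0.23 for 10 against 2, 20 against 2 and 20 against 10 months. For the 9 genes it was 0.08, 0.61 and 0.55. Because these genes were chosen on their levels, the gap between the medians is open to that choice and is not read as a result.

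Median-of-ratios scaling moved the differences of all genes by a median of 0.20 at 20 against 2 months. With it Yap1 was still lower, by 0.43, while Tagln was higher by 1.73 and Nexn by 3.04. Scaling moved Tpm1 to 0.53 in that comparison. At 20 against 10 months it moved Tpm1 to 0.61, Amotl2 to 0.60 and Yap1 to -0.34.

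These are bulk libraries, in which more cells of a type and more RNA per cell cannot be told apart. Tagln, Myl9 and Tpm1 are also muscle genes, so lists of markers of other cells were read beside them. Summed FPKM of the smooth muscle and pericyte markers lay at 51.5 to 52.3 for 2-month libraries, 51.8 to 53.5 for 10-month and 41.8 to 50.3 for 20-month ones. Of the 13 in the table, 6 were below 1 FPKM in all libraries, none was at 0 in all, and Des had the highest mean over the 9 libraries, at 11.96 to 23.4 FPKM, although Cspg4 was above it at 2 months, with 23.5, 23.3 and 23.2 FPKM. Acta2, the smooth muscle actin that usually accompanies Tagln, read 1.505, 4.41 and 0.983 FPKM at 20 months, against 0.436, 0.369 and 0.235 FPKM at 2 months, and did not enter the fit. Tagln stood at 406 FPKM or more in every library. Of the 6 smooth muscle markers tested at 20 against 2 months, 1 rose and 3 fell, beside 18.6% and 49.6% of all genes. After scaling 2 rose and 3 fell, beside 3560 higher and 3765 lower of all 11708 genes.

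The skeletal and cardiac muscle markers summed to 34.5 to 38.0 FPKM in the libraries of 2 months, 23.3 to 24.1 in those of 10 months, and 5.88, 6.67 and 292 in those of 20 months. The 1 high library, replicate 3 at 20 months, held 92.5 FPKM of Acta1, skeletal muscle actin. It also had 112 FPKM of the annulus and tendon fibroblast markers, led by Dcn, where the other 20-month libraries had 26.4 and 33.8 and the younger ones 16.9 to 19.4. By limma 0 of the 7 tested muscle markers were called in any comparison, and 0 had an unadjusted p under 0.05. Without replicate 3, 7 of 7 were called at 20 against 2 months. That fit called 7758 of all 11708 tested genes, 2128 higher and 5630 lower. The remaining 20-month libraries, at sums of 5.88 and 6.67 FPKM, lay below the 34.5 to 38.0 FPKM of 2 months. Among the 20-month libraries, Myl9, Amotl2 and Ccn1 were lowest in replicate 3, and Ccn2, Nexn and Yap1 highest. Without it the difference at 20 against 2 months was 1.503 for Tagln, 2.78 for Nexn, 0.32 for Tpm1, 0.61 for Cnn2 and 1.175 for Myl9. It was 1.64 for Ccn2, 0.56 for Ccn1, 0.53 for Amotl2 and -0.72 for Yap1, so that each of the 9 kept its sign. Of the 7 annulus and tendon markers tested, 3 rose and 2 fell at 20 against 2 months, beside 18.6% and 49.6% of all genes, and their part in the levels of the 10 genes was not tested.

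The 5 endothelial markers that could be read summed to under 1 FPKM in every library, each below 1. Pecam1 and Cldn5, also listed, were not found under those names, so their levels are unknown here. The nucleus pulposus and notochord markers summed to 22346 to 23484 FPKM in the 2-month, 18100 to 18279 in the 10-month and 18500 to 18797 in the 20-month libraries, with Foxa2 and Shh below 1 FPKM in all. Cd24 had the highest mean over the 9 libraries, but at 20 months Krt8 was above it, with 4343, 4415 and 4573 FPKM, where Cd24 read 3790, 4060 and 3746 FPKM. The label nucleus pulposus thus goes with abundant markers of that tissue at each age. Most of those tested were lower at the later ages than at 2 months. Of 10 tested, 8 fell and 0 rose at 10 against 2 months, beside 11.4% and 19% of all genes. At 20 against 2 months 7 fell and 1 rose, beside 49.6% and 18.6%. After scaling 6 fell and 3 rose there, beside 3765 and 3560 of all 11708 genes. At 20 against 10 months 5 fell and 3 rose, beside 53.3% and 11.4%. After scaling 3 fell and 7 rose there, beside 3113 and 3035.

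Around Yap1, the Hippo pathway list held 30 other genes, of which 25 were tested, and at 20 months more of it was lower than higher. At 10 against 2 months 9 rose and 2 fell of 25, beside 19% and 11.4% of all genes. At 20 against 2 months 1 rose and 15 fell, a share of 60.0% lower beside 49.6% of all genes. After scaling 6 rose and 9 fell, beside 3560 higher and 3765 lower of all 11708 genes. At 20 against 10 months 21 fell and 0 rose, where 53.3% of all genes fell and 11.4% rose. After scaling 13 fell and 2 rose there, beside 3113 lower and 3035 higher of all genes. The list's median was -0.25 at 20 against 2 months, beside -0.20 over all genes.

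Tead1, the DNA-binding partner of YAP, had the largest fall in that list. It read 22.2, 19.9 and 19.6 FPKM at 2 months, 19.8, 17.5 and 17.9 FPKM at 10 months, and 8.43, 6.86 and 7.42 FPKM at 20 months. Its difference at 20 against 2 months was -1.33 ± 0.08 (SE, adjusted p = 1.11e-06) and -1.14 after scaling. The other tested TEAD genes, Tead3 and Tead4, were not called there but were called in other comparisons. Tead4 was higher by 0.53 at 10 against 2 months (adjusted p = 0.00395). At 20 against 10 months Tead3 differed by -0.30 (adjusted p = 8.59e-04) and Tead4 by -0.36 (adjusted p = 0.0103). After scaling these were -0.05 and -0.17. At 20 against 2 months Tead3 differed by 0.10 (adjusted p = 0.116) and Tead4 by 0.17 (adjusted p = 0.15), and after scaling by 0.30 and 0.32. Wwtr1, which encodes the YAP paralogue TAZ, differed by -0.18 (adjusted p = 0.0819), although its libraries did not overlap, with 13.0, 12.9 and 10.8 FPKM at 20 months and 15.2, 13.3 and 13.5 FPKM at 2 months. Scaling turned its sign, to 0.02.

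Upstream of YAP, the kinase gene Stk4 (MST1) fell to 4.39, 3.89 and 4.15 FPKM at 20 months, against 8.87, 8.54 and 8.71 FPKM at 2 months, a difference of -0.92 (adjusted p = 7.77e-07). Mob1a, the adaptor that activates LATS, fell by 0.89 at 20 against 2 months (adjusted p = 3.57e-07). Ptpn14, a phosphatase that binds YAP, fell by 0.92 at 20 against 10 months (adjusted p = 2.46e-06) after it had risen by 0.49 at 10 against 2 months (adjusted p = 2.66e-04). Vgll3, a cofactor that binds TEAD, was the 1 gene of the list counted as higher at 20 against 2 months, by 0.58. It read 1.41, 1.05 and 1.08 FPKM at 20 months, against 0.425, 0.562 and 0.396 FPKM at 2 months. It passed the filter on low values only through its 20-month libraries, so its call is not read as a test. That call was also lost without replicate 1 at 20 months. The LATS-binding LIM protein gene Ajuba and Tead3 also rose at 10 against 2 months, by 0.47 and 0.39, and Limd1, of the same LIM family, fell by 0.31 (adjusted p at most 0.00511). Mob1a fell there by 0.18 (adjusted p = 0.0137, and 0.0522 without replicate 3 at 10 months).

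Other genes commonly listed as YAP and TAZ targets were mixed. This list shares genes with the Hippo pathway list, Ptpn14 among them, and these count in both. Of 15 tested, 9 rose and 3 fell at 10 against 2 months, 4 rose and 8 fell at 20 against 2 months, and 3 rose and 11 fell at 20 against 10 months. At 20 against 2 months these are 26.7% higher and 53.3% lower, beside 18.6% and 49.6% of all genes. At 20 against 10 months they are 20.0% and 73.3%, beside 11.4% and 53.3%, and at 10 against 2 months 60.0% and 20.0%, beside 19% and 11.4%. Scaling changed the split at 20 against 10 months to 4 and 7, beside 3035 and 3113 of all 11708 genes. The list's median at 20 against 2 months was -0.37, and -0.16 after scaling. Tgfb2, a growth factor of the TGF-beta family, read 54.6, 65.3 and 61.8 FPKM at 20 months, against 24.4, 24.3 and 24.1 FPKM at 2 months, and rose by 1.28 ± 0.06 (SE, adjusted p = 3.62e-07). The kinase gene Nuak2 rose by 0.84 (adjusted p = 3.96e-05) and the stress-response gene Gadd45a by 0.77 (adjusted p = 1.13e-05), both at 20 against 2 months. In the same comparison Asap1, Nt5e and Arhgef17 fell by 0.59, 0.51 and 0.65 (adjusted p at most 8.24e-06). Crim1, a BMP-binding membrane protein gene, rose by 0.35 at 10 against 2 months, and Fjx1 fell by 0.67 (adjusted p at most 8.62e-04). Ccdc80 fell by 0.49 at 20 against 10 months (adjusted p = 5.65e-06).

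On the parallel route, Srf rose, with 10.3, 9.35 and 11.3 FPKM at 20 months, against 7.16, 7.18 and 7.10 FPKM at 2 months, a difference of 0.47 (adjusted p = 4.66e-04). Its co-activator gene Mrtfa fell to 1.67, 1.68 and 1.496 FPKM at 20 months, against 2.97, 3.56 and 3.19 FPKM at 2 months, a difference of -0.70 (adjusted p = 3.88e-05). Elk1, an SRF partner that competes with MRTF, fell by 1.23 at 20 against 2 months (adjusted p = 1.89e-07). Srf thus lay in the opposite direction to Mrtfa and Elk1.

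The actin filament list was divided: of 35 tested of 40, 8 rose and 11 fell at 10 against 2 months, 13 rose and 18 fell at 20 against 2 months, and 8 rose and 15 fell at 20 against 10 months. The shares were 22.9% and 31.4%, beside 19% and 11.4% of all genes, then 37.1% and 51.4%, beside 18.6% and 49.6%, and last 22.9% and 42.9%, beside 11.4% and 53.3%. Scaling turned the split round in both comparisons with 20 months. Against 2 months 16 rose and 10 fell, beside 3560 higher and 3765 lower of all 11708 genes under the same scaling. Against 10 months 16 rose and 5 fell, beside 3035 and 3113. It gave 6 and 13 at 10 against 2 months, beside 1774 and 1703. The list's median at 20 against 2 months was -0.16, and 0.05 after scaling. Cald1, the actin- and myosin-binding protein caldesmon, read 27.6, 18.9 and 22.1 FPKM at 20 months, against 5.60, 6.21 and 5.51 FPKM at 2 months, and rose by 1.802 ± 0.11 (SE, adjusted p = 1.43e-06). Fhl1 and Wdr1 rose by 0.55 and 0.34 at 20 against 2 months (adjusted p at most 2.62e-05), and Actg1, a cytoplasmic actin, rose by 0.34 at 20 against 10 months (adjusted p = 1.92e-04).

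Tmsb10, which holds free actin monomers, had the largest fall of the Hippo, YAP and TAZ, and actin filament lists, to 35.1, 28.0 and 30.5 FPKM at 20 months, against 209, 209.7 and 197 FPKM at 2 months, a difference of -2.68 ± 0.07 (SE, adjusted p = 2.62e-08). Myh10, a non-muscle myosin heavy chain, fell by 0.92 (adjusted p = 1.18e-07), and Tagln2, the transgelin paralogue of most non-muscle cells, fell by 0.61 (adjusted p = 7.74e-07), both at 20 against 2 months. Tagln and Tagln2 therefore lay in opposite directions, Tagln at 2.86 times its 2-month mean and Tagln2 at 166, 176 and 165 FPKM, against 253, 258 and 266 FPKM at 2 months. The actin cross-linker and LIM protein genes Actn4, Lima1 and Fhl2 rose at 10 against 2 months, by 0.38, 0.32 and 0.60, while Myl6, Myh10 and Tpm3 fell by 0.48, 0.46 and 0.27 (adjusted p at most 0.00172).

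**Figure D3:**
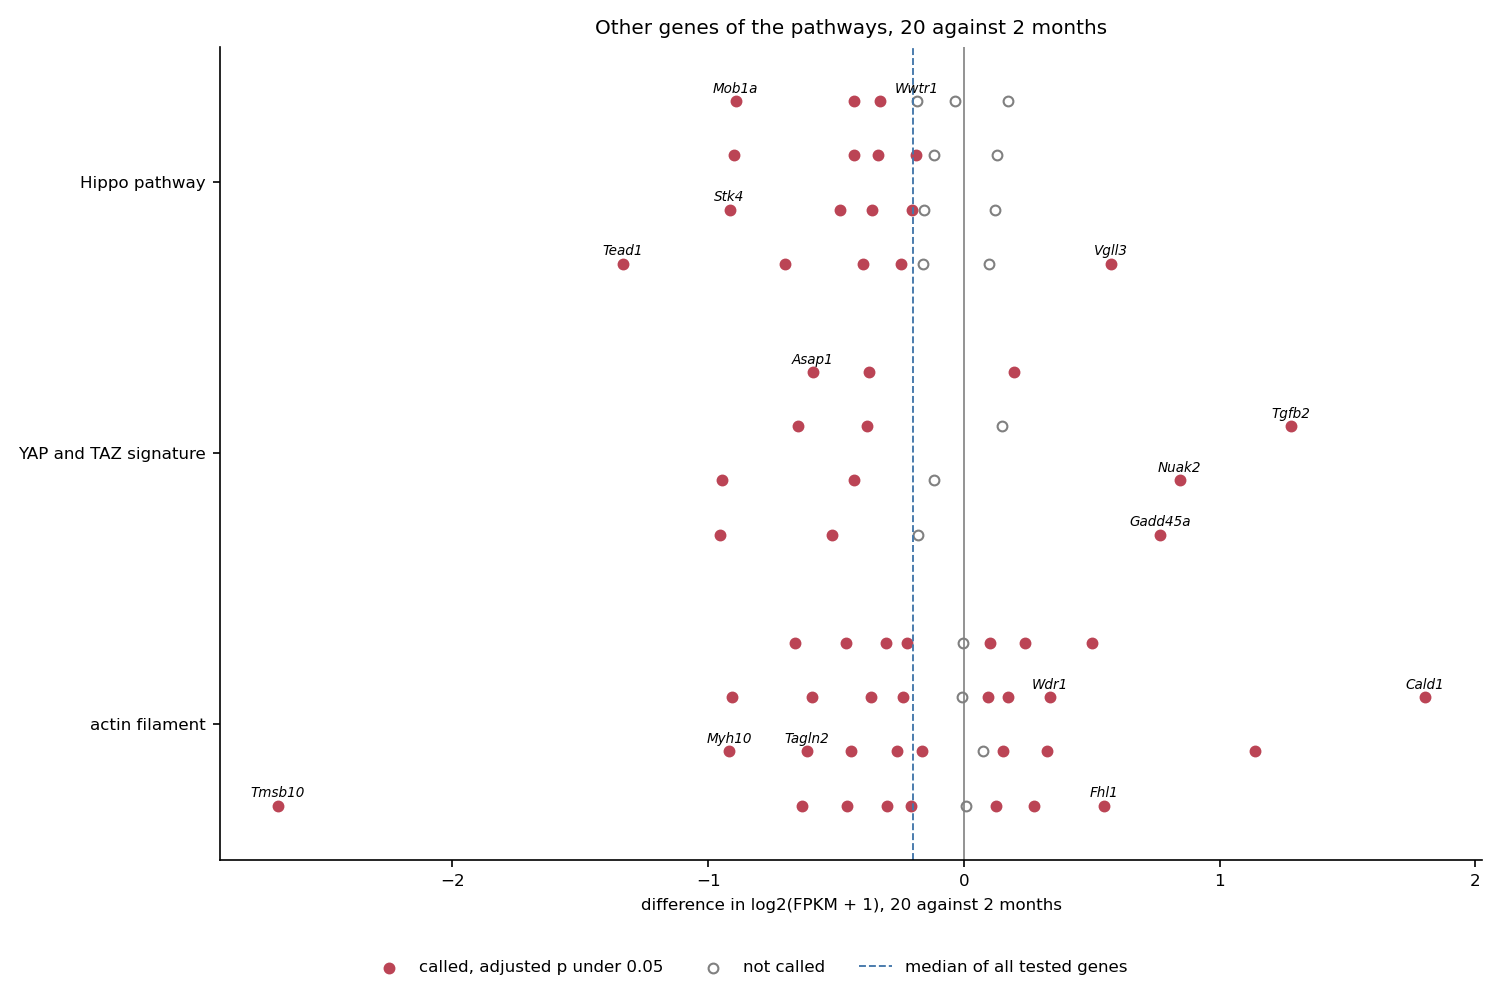
Difference in log2(FPKM + 1) at 20 against 2 months for each tested gene of 3 pathway lists (horizontal axis), with 1 band per list and points set apart vertically for legibility. Filled points were called at an adjusted p under 0.05 and the dashed line is the median of all tested genes, -0.20; Cald1 at 1.802 lies at the right, Tmsb10 at -2.68 at the left.

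Whether the genes also differ in which isoform they use was not part of how they were chosen. The isoform table gave 10 isoforms of 5 of the genes that could be tested (Ccn2, Nexn, Tpm1, Amotl2 and Yap1), with limma on the log2 ratio of each isoform over the others of its gene. Between 10 and 2 months 0 of the 10 were called by limma and 0 had an unadjusted p under 0.05, beside 0.253% of all 2771 isoforms called. At 20 against 2 months 2 were called, both of Ccn2, beside 11.1% of all isoforms. At 20 against 10 months 0 were called and 3 had an unadjusted p under 0.05, beside 7.98% of all isoforms.

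Both Ccn2 isoforms make up the same ratio, so they count as 1 result. The isoform with 5 exons (ENSRNOT00000020528, 2333 bases) held 67.8, 82.5 and 69.8% of the summed isoform FPKM at 2 months, 74.5, 71.4 and 86.0% at 10 months, and 92.0, 88.7 and 91.6% at 20 months. The other, with 4 exons (ENSRNOT00000089196, 2702 bases), held the rest. In level, the 5-exon isoform read 269, 219 and 330.0 FPKM at 20 months, against 56.8, 70.0 and 56.7 FPKM at 2 months, while the 4-exon isoform read 23.4, 27.9 and 30.2 FPKM, against 27.0, 14.8 and 24.6 FPKM. The higher Ccn2 level at 20 months was thus that of the 5-exon isoform, while the 4-exon isoform overlapped between the ages. The log2 ratio was higher by 1.81 ± 0.43 at 20 against 2 months (SE, adjusted p = 0.0413), and this call was lost in 7 of the 9 fits that left out 1 library, with an adjusted p of up to 0.125.

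Tpm1 was spread over 8 listed isoforms, of which 3 entered the fit. Its main isoform, ENSRNOT00000085894 with 9 exons, held 43.6, 42.5 and 43.2% at 2 months, 48.0, 46.9 and 42.9% at 10 months, and 52.8, 57.0 and 45.8% at 20 months. The log2 ratio differed by 0.51 ± 0.18 at 20 against 2 months (SE, adjusted p = 0.13). It was not called in 8 of the 9 fits that left out 1 library. Without replicate 3 at 20 months it was called by limma (adjusted p = 0.0441). The isoforms ENSRNOT00000040808 and ENSRNOT00000048044 differed by -0.43 and -0.36 in the same comparison, with adjusted p of 0.141 and 0.257. The minor isoform ENSRNOT00000024617 was uneven between libraries of 1 age and held 1.41, 1.20 and 10.3% at 20 months and 0.680, 0.906 and 7.87% at 10 months, with replicate 3 high at both ages.

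In Amotl2 1 library stood apart. The longer isoform ENSRNOT00000090221 held 15.8, 12.4 and 13.2% at 2 months, 33.8, 29.5 and 17.2% at 10 months, and 86.1, 20.5 and 13.3% at 20 months. Its log2 ratio differed by 1.84 ± 1.22 at 20 against 2 months (SE, adjusted p = 0.388). The gene-level Amotl2 value of that library, replicate 1 at 20 months, was 33.1 FPKM, near the 33.7 FPKM of replicate 2. In Yap1 the isoform ENSRNOT00000087278 held 69.3, 57.8 and 56.1% at 20 months and 61.4, 61.3 and 65.7% at 2 months, and the shares overlapped, with a difference of -0.10 (adjusted p = 0.848). Nexn's main isoform ENSRNOT00000083344 held 79.6 to 97.0% across all libraries and its ratio differed by 0.48 at 20 against 2 months (adjusted p = 0.571). Tagln was read almost wholly from 1 of its 2 isoforms, ENSRNOT00000024030, at 97.8 to 99.96%, and Ccn1, Myl9, Cnn2 and Ankrd1 have 1 listed isoform each.

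**Figure D4:**
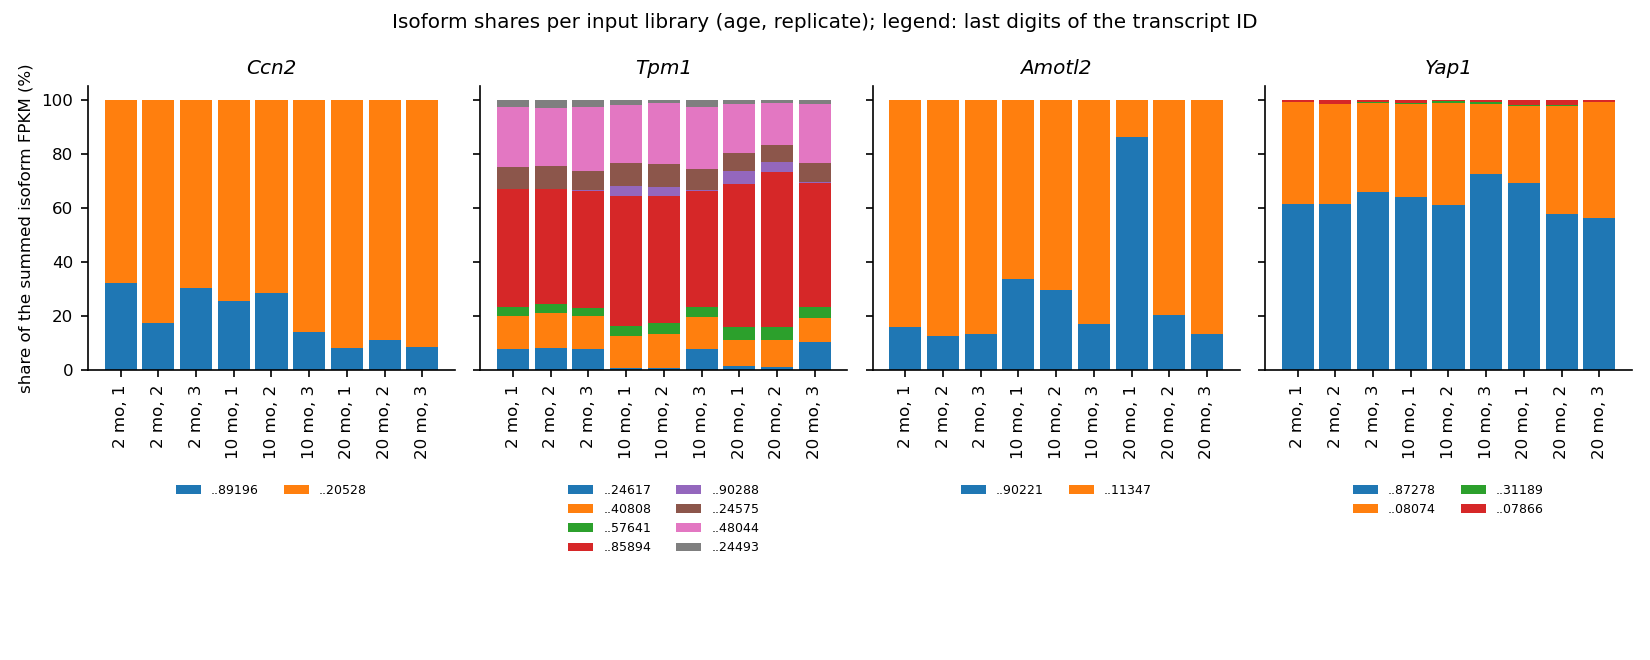
Share of the summed isoform FPKM in percent (vertical axis) taken by each listed isoform of Ccn2, Tpm1, Amotl2 and Yap1 in each of the 9 input libraries (horizontal axis, age in months and replicate), with colours for isoforms named by the last digits of their transcript ID. The Ccn2 isoform ending 20528 takes 88.7 to 92.0% at 20 months, and the Amotl2 isoform ending 90221 takes 86.1% in 1 library at 20 months.

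The 9 tested genes were set against each other and against 7029 tested genes outside the set. Those had a mean of at least 5 FPKM and a symbol that was not screened out as a placeholder. The measure was the root mean square difference between log2 profiles centred on each gene's own mean over the 9 libraries. This describes likeness over libraries that fall into 3 age groups. Tpm1 and Amotl2 were the closest pair of the 9, at 0.102, followed by Cnn2 and Amotl2 at 0.162 and Tpm1 and Cnn2 at 0.207. Nexn and Yap1 were the farthest apart, at 1.44. Tagln and Nexn, both higher at each later age, were 0.584 apart, with larger steps in Nexn.

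Outside the set, the profile nearest to Tagln was that of Mphosph8, a chromatin protein that binds methylated histone H3, at 0.107, then Psme1, a proteasome activator subunit, at 0.112, and Tgfb2 at 0.119. The median over the genes compared was 0.713. Mphosph8 read 6.98, 8.11 and 7.77 FPKM at 2 months, 16.7, 18.1 and 16.4 FPKM at 10 months, and 22.8, 28.1 and 26.2 FPKM at 20 months.

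Nexn was nearest to Zfp386, a zinc finger gene, at 0.151, to Pnisr, which encodes an arginine- and serine-rich nuclear protein, at 0.220, and to Ppig, a peptidyl-prolyl isomerase gene, at 0.249. The median over the genes compared was 1.26. Ccn2 was nearest to Plk2, a polo-like kinase gene that cells induce early under stress, at 0.0423, to Zfp36, which encodes an RNA-binding protein that destabilises inflammatory transcripts, at 0.180, and to Cdkn1a, which encodes the cell cycle inhibitor p21, at 0.191. The median there was 0.987. Plk2 read 16.2, 13.6 and 18.7 FPKM at 20 months, against 3.88, 3.88 and 3.61 FPKM at 2 months, so that its 3 libraries at 20 months kept the order of Ccn2's, lowest in replicate 2 and highest in replicate 3.

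**Figure D5:**
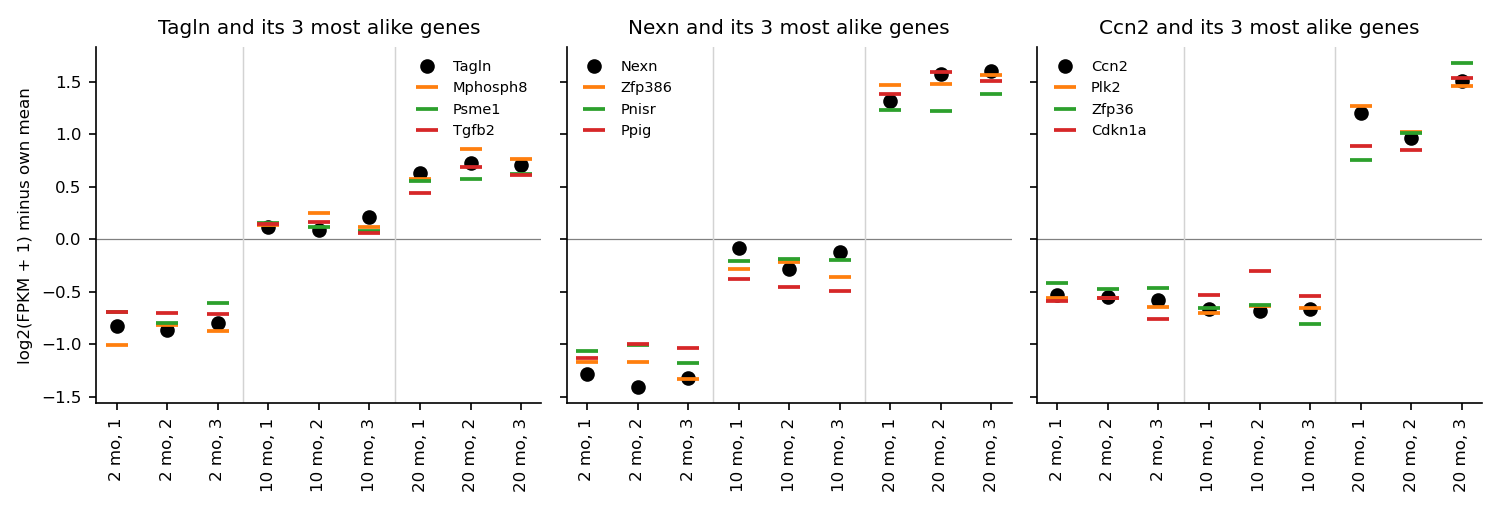
log2(FPKM + 1) minus the gene's own mean over the 9 libraries (vertical axis) in each library (horizontal axis, age in months and replicate) for Tagln, Nexn and Ccn2 (black points) and the 3 genes nearest to each (coloured bars). Plk2 lies on Ccn2 in all 9 libraries, at a root mean square difference of 0.0423, and the genes near Nexn lie between 0.151 and 0.249 from it.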

How the data were processed

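Input libraries of rat nucleus pulposus (9, 3 per age) were analysed. Per the file headers, the deposited gene table holds FPKM and the deposited isoform table FPKM and coverage (mean reads per base). Tools listed by the submitters' processing notes, with no roles, are StringTie 1.3.4d, HISAT2 2.0.4, cutadapt 1.9, edgeR and DESeq2. The sources used here give neither genome build nor strandedness, so antisense partners cannot be told apart. Bases and reads were estimated from FPKM over coverage. No counts were used.

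The 11708 genes that reached 1 FPKM in 3 or more libraries were tested with limma 3.58.1 (R 4.3.3, mean-variance trend) on log2(FPKM + 1), with Benjamini-Hochberg adjustment over all of them. Isoform ratios used 0.5 added to both sides, a summed FPKM of at least 5 and a mean share of 10 to 90%. The method was tested on simulated data.

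The 10 genes and all lists were chosen with earlier results of these data known. Beside the 10 genes, the text names per list and comparison up to 3 called members per direction by adjusted p, the TEAD, TAZ, SRF and MRTF genes and Acta2, the 3 nearest profiles to Tagln, Nexn and Ccn2, and the highest marker of each cell type. Myl12a, Shh, Foxa2, Ccn3, Ccn4 and Ccn5 were added after their values were seen. Alternatives were other pseudocounts (0.1, 5), filters, median-of-ratios scaling, fits of 2 ages, a replicate block and leaving out each library. Of 1 further list Srf, Mrtfa and Elk1 are given and the rest is not reported here. The listed genes Wwc1, Tead2, Foxf2 and Mrtfb were not found under those names and were not analysed here. The same holds for the markers Kcnj8, Myh1, Myh2, Ttn, Col1a2, Mkx, Pecam1 and Cldn5.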

Additional observations from a re-analysis of the deposited data

How the results depend on the processing

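Of 27 level differences of the 9 genes between ages, none changed sign under scaling, the other pseudocounts or the loss of 1 library of a compared age. The genes were chosen on these levels and no such count was made over all genes, so this is a description only. The other alternatives leave a difference as it is by construction. Median-of-ratios scaling moved 17 of them by more than the spread between libraries, a pseudocount of 0.1 moved 2 and a pseudocount of 5 moved 5. The counts of genes called over the whole table were 3551, 7986 and 7576 for 10 against 2, 20 against 2 and 20 against 10 months. Leaving out 1 library gave 2504 to 4073, 7273 to 7965 and 6904 to 7598. Scaling made the split even, with 1774 higher and 1703 lower, 3560 and 3765, and 3035 and 3113. Among the other named genes, scaling turned the sign of Wdr1 (-0.009474) at 10 against 2 months, of Ajuba (0.0007426), Lima1 (0.21) and Wwtr1 (0.01949) at 20 against 2 months, and of Crim1 (0.09961), Asap1 (0.1103), Actn4 (0.1523), Fhl2 (0.1089) and Tpm3 (0.06431) at 20 against 10 months. Leaving out 1 library also turned Lima1 at 20 against 2 months (-0.02919 to 0.03129) and Fhl2 at 20 against 10 months (-0.1726 to 0.001188). Scaling itself moved the differences of all genes by a median of -0.03 at 10 against 2 months, 0.20 at 20 against 2 months and 0.23 at 20 against 10 months. Among the 102 differences of the other named genes, 23 values under an alternative lost and 9 gained a call, and 1486 kept both direction and call.

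The 2 Ccn2 isoforms called at 20 against 2 months became 0 with a wider isoform filter and 0 or 2 when 1 library was left out. With the replicate number as a block the count was also 0, and the genes called were 3185, 7859 and 7467. Same-numbered libraries of different ages did not deviate together (correlations of -0.040 to 0.049). No pairing by number was thus seen, although such correlations cannot show that the numbers share no source. The cause of these changes was not tested. Ankrd1 rests on 17.5 to 36.7 estimated reads, which limits its precision.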

Other observations

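The other CCN genes in the table did not share 1 pattern with Ccn1 and Ccn2. They were chosen after their values were seen and are given as values. Ccn3, known as NOV and often described as a counterpart of Ccn2 in rodent disc and cartilage, stood at 19.7 ± 0.365 FPKM at 2 months, 31.5 ± 0.275 FPKM at 10 months and 34.6 ± 0.308 FPKM at 20 months (SD, n = 3 each). Most of its difference was thus already present at 10 months, when Ccn1 was lowest and Ccn2 at 0.921 times its 2-month mean. Ccn4, a target of Wnt signalling, was highest at 10 months, with 13.3 ± 0.437, 16.1 ± 1.04 and 9.84 ± 0.621 FPKM at 2, 10 and 20 months. Ccn5 stayed low, with 0.899, 0.967 and 1.95 FPKM at 20 months, against 0.0639, 0.0919 and 0.302 FPKM at 2 months.

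The annotation terms in the gene table gave a wider view, also chosen after the data were seen. Without the 10 genes, the Hippo signalling term held 95 tested genes, of which 16 were called higher and 53 lower at 20 against 2 months by limma, and 32 and 35 after scaling. The actin binding term held 226 tested genes, of which 30 were called higher and 139 lower, and 57 and 88 after scaling. For comparison, 18.6% of all genes were called higher and 49.6% lower, and after scaling 3560 and 3765 of 11708.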
